A study of Mus musculus with 21 samples.

Results

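The genes described here encode the proteins of the cytosolic ribosome. They are the rows of a deposited mouse expression table whose symbol is Rpl or Rps with a number (and at most a short suffix), together with Rpsa, Rplp0, Rplp1, Rplp2 and Fau, 74 of 22119 rows. Of these, 43 belong to the large and 31 to the small subunit. Kinases with similar symbols and pseudogenes with symbols ending in -ps were left out, as was Rpl36al, whose suffix the rule does not match. The RNA came from EL4, a T lymphoma line of C57BL/6 mouse origin grown in medium with calf serum. Libraries of poly(A) RNA were made from EL4 cells with a control hairpin headed shLuc, the usual name for a hairpin against luciferase (2 libraries), and from EL4 cells with a hairpin headed shCTCF (2 libraries). CTCF, the protein that this hairpin is directed against, sits at insulators and at the anchors of chromatin loops, and the comparison asks how these genes stand when its RNA is lowered. The other 17 of the 21 samples in the series (chromatin libraries and 1 EL4 RNA library with no hairpin in its title) are not used here. The labels name 1 kind of hairpin against Ctcf and give no vector, selection or time, so what follows from less Ctcf cannot be told apart from anything else the hairpin does. No label gives separate cultures for libraries of 1 group, and p-values rest on a spread between libraries that may be purely technical.

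A ribosome is built from a small subunit, which holds the mRNA and reads its codons, and a large subunit, which joins amino acids. Each subunit carries 1 copy of most of its proteins, so cells make these proteins in matched amounts, and lymphoma cells that grow fast devote much of their mRNA to them. In mammals these mRNAs begin with a tract of pyrimidines next to the cap, the terminal oligopyrimidine (TOP) motif, through which the mTOR pathway and LARP1 control their translation and stability. Several ribosomal proteins have further known roles, among them the binding of Mdm2 by free Rpl5 and Rpl11.

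The starts of a few members are printed first, because this tract is a feature many of these genes share and the list of genes was not chosen by it. RefSeq start entries (build GRCm38.p6) were found for 52 of the 70 members that were expressed, and 18 had none. Each window runs from 10 bases before the annotated start to 20 bases from it on, in the direction of transcription, and capitals mark the longest run of 6 or more C or T that begins with C. The first 3 genes were higher in both shCTCF libraries than in the mean of the controls, the next 3 had log2 changes near 0, and the last 2 were among the highest and hold no such run:
Fau, chr19:6057937-6057966, + strand: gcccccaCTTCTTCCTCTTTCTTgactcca
Rplp2, chr7:141447641-141447670, + strand: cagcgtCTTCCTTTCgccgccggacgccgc
Rpl38, chr11:114668570-114668599, + strand: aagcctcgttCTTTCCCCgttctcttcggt
Rpl7a, chr2:26910797-26910826, + strand: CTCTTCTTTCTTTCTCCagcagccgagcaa
Rps6, chr4:86857348-86857377, − strand: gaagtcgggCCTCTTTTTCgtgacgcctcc
Rpl12, chr2:32961702-32961731, + strand: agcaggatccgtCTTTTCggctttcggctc
Rps28, chr17:33824543-33824572, − strand: cgcgtgcggtctcgcgagagcgaaagtgag
Rpl24, chr16:55966265-55966294, + strand: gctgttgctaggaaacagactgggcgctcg

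Such a run lay in the window of 32 of the 62 annotated starts of members (51.6%), against 22.3% of starts of other tested genes and 22.0% of all RefSeq starts. Counted by gene, 31 of 52 members (59.6%) had it at 1 or more starts, against 26.3% of other tested genes and 24.9% of all. A gene with several annotated starts has more windows in which to hold it. The run was searched on the transcribed strand only, and a window without it says only that these letters are not next to the annotated start. Of the other motifs searched, on both strands of the 300 bases from 250 before to 50 after a start, the ETS core CCGGAAG was present at 32.3% of members' starts, 18.9% of other tested genes and 8.86% of all. The YY1 core AAGATGG was present at 17.7%, 7.14% and 6.34%, and the TATA box TATAAA at 11.3%, 6.73% and 13.6%. These matches describe the sequence and do not show binding.

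The hairpin's target was lower, as its label says. Ctcf stood at 49.0 and 50.9 RPKM (reads per kilobase, relative to library depth) in the shLuc libraries, headed 2 and 3 in the table, and at 26.5 and 26.4 RPKM in the shCTCF libraries, also headed 2 and 3. The log2 change of Ctcf was −0.89 (standard error, SE, 0.08; adjusted p 0.0075 in limma, Benjamini-Hochberg over 9898 genes). With shLuc library 2 left out the adjusted p was 0.11, and with shLuc library 3 left out it was 0.14. Throughout, a log2 change is the mean log2(RPKM + 1) of shCTCF minus that of shLuc, and the genes tested had a mean of 1 RPKM or more. The libraries' RPKM values imply divisors of 5240362 and 6133046 reads (shLuc) and 4346709 and 5768563 reads (shCTCF). The T cell label held: all 11 T cell markers with a row of their own were expressed, summing to 2267 and 2252 RPKM in shLuc and to 1972 RPKM in each shCTCF library. Their log2 change had a median of −0.22 and was below 0 in 10 of 11, with 0 called. At an unadjusted p below 0.05 in limma 7 were lower, against 5.93% of all tested genes. The part of this in the results on ribosomal protein genes was not tested. Markers of B cells, myeloid cells, fibroblasts and erythroid cells summed to at most 3.63 RPKM per list in every library, with Ms4a1, Pax5, Cd14, Emr1, Elane and Col3a1 among the markers listed at 0.

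In EL4 cells the ribosomal protein genes were highly expressed, and most of them read slightly higher in shCTCF than in shLuc cells. The sum of all 74 was 25790 and 25678 RPKM in the shLuc libraries, or 6.58% and 6.61% of the table's sum. It was 27641 and 30949 RPKM in the shCTCF libraries, or 7.01% and 7.66%. The groups did not overlap, and the share went from 6.60% ± 0.0184 to 7.34% ± 0.461 (SD, n = 2 each). Ribosomal protein genes in rows joined with another gene, described below, are outside these sums. With 2 libraries against 2, an exact permutation test cannot give a p below 1 in 3, so none is given. In bulk RNA, another mix of cells and another amount of these mRNAs per cell cannot be told apart, nor can more of these mRNAs and less of the others.

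Levels differed widely between members. The 70 expressed members ran from 35.1 RPKM (Rpl21) to 1822 RPKM (Rplp1) as means over the 4 libraries. RPKM divides by the length of the gene model. Rpl21 and the next lowest, Rps15a (45.0 RPKM), have implied lengths of 1856 and 5134 bp, against a members' median of 679 bp. The span therefore need not be one of mRNA abundance. The 5 most abundant were Rplp1, Rpl8, Rplp0, Rps15 and Rpl4. Rplp1, an acidic protein of the stalk that recruits elongation factors to the large subunit, stood at 1664 and 1625 RPKM in shLuc and at 1860 and 2140 RPKM in shCTCF. The shCTCF libraries lay above both controls (log2 change 0.28, SE 0.09, adjusted p 0.22 in limma). Rplp0, the base of the same stalk, stood at 1293 and 1116 RPKM against 1298 and 1245 RPKM, with groups that overlapped and a log2 change of 0.08. Rpl8, a protein at the catalytic centre, stood at 1497 and 1391 RPKM in shLuc and at 1503 and 1559 RPKM in shCTCF. These values just cleared each other, with a log2 change of 0.09 (SE 0.08). Rpl4, which lines the exit tunnel of the nascent chain, was nearly level at 1098 and 1094 against 1070 and 1087 RPKM. It was the one member whose shCTCF libraries both lay below both controls, by a log2 change of −0.02 (SE 0.07). Rps15, a protein of the head of the small subunit, stood at 1087 and 1026 RPKM against 1142 and 1236 RPKM, with groups apart and a log2 change of 0.17 (SE 0.08). At the other end, 4 members were not tested: Rpl10l, Rpl39l and Rps4y2 were listed at 0 in all 4 libraries, and Rpl3l, known from muscle, had a value above 0 only in shCTCF library 3 (0.200 RPKM).

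**Figure D1:**
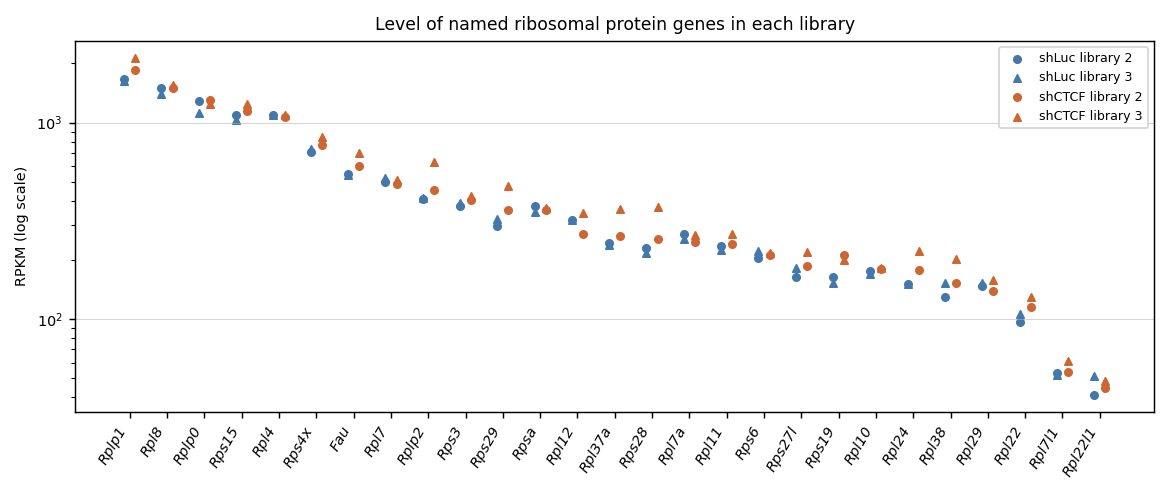
Level of 27 named ribosomal protein genes in each library, ordered by mean, with RPKM on a log scale on the y axis. Blue marks are the shLuc and orange marks the shCTCF libraries (circles library 2, triangles library 3). Levels span from Rplp1, at 1625 RPKM or more in every library, to Rpl22l1, at 41.2 to 51.3 RPKM, and the marks of a gene lie close together beside that span.

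No member passed the threshold of an adjusted p below 0.05 in limma without covariates, in either direction. Of all 9898 tested genes, 0.697% were called higher and 0.596% lower. At an unadjusted p below 0.05, 29 of 70 members were higher and 0 lower in limma, against 8.19% and 5.93% of all tested genes. Both shCTCF libraries lay above both shLuc libraries for 50 of the 70 and below them for 1, against 24.1% and 19.9% of all tested genes. The log2 change was above 0 in 65 of 70 members (53.3% of all tested genes) and had a median of 0.19, where the median of all tested genes was 0.01. The middle of the distribution, from the lower to the upper quartile, ran from 0.11 to 0.28, and the extremes were −0.05 (Rpl12) and 0.46 (Rps28). The members' means therefore differed by fractions of their level: the mean of Rps28 was 40.1% higher in shCTCF and the mean of Rpl12 differed by −2.90%. A model that uses the depth of each row, limma-voom on whole reads recovered from the RPKM values, called 16 of 65 members higher and called 2.80% of its tested genes higher. The members it called included Rps19, Rpl24, Rps29, Rps28, Rplp1 and Rplp2. With the library number as a replicate block, limma called 18 members and 2.97% of all tested genes higher, but the numbers are not stated to pair the samples.

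The 2 shCTCF libraries did not carry this equally. Measured from the mean of the controls, the members' median was 0.10 in shCTCF library 2 and 0.28 in shCTCF library 3, with 59 and 69 of the 70 members above the control mean. Within the shCTCF group, 66 of 70 members were higher in library 3 than in library 2, by a median of 0.17. Within the shLuc group, 36 of 70 were higher in library 3 than in library 2, by a median of 0.01. The spread between the shCTCF libraries was therefore about as large as the difference between the groups. Without shCTCF library 3 the median over members was 0.10, and 4 of 70 members were higher at an unadjusted p below 0.05 in limma, a share near the 4.75% of all genes tested in that fit. Without shCTCF library 2 the median was 0.28 and 5 members passed the adjusted threshold in limma (Rpl24, Rps29, Rps28, Rplp2 and Rpl37a), where 0.607% of all genes tested in that fit were called higher.

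**Figure D2:**
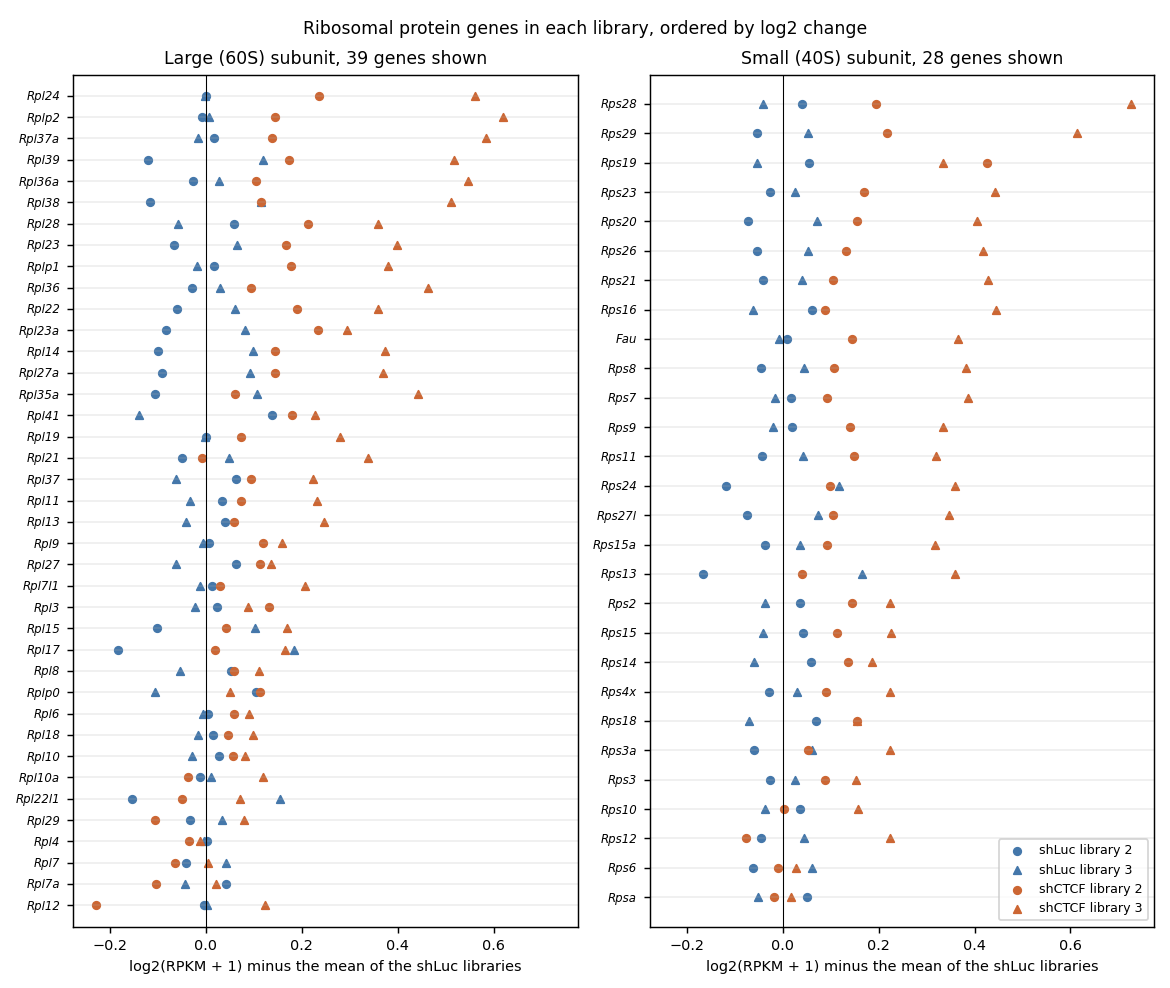
Values of 67 of the 70 tested ribosomal protein genes in each library, as log2(RPKM + 1) minus the mean of the shLuc libraries (x axis), for the large subunit (left, 39 genes) and the small subunit (right, 28 genes), ordered by log2 change. Blue marks are shLuc and orange marks shCTCF (circles library 2, triangles library 3). Orange triangles lie to the right of orange circles in 64 of the 67 genes, and Rps19 is an exception near the top of its panel.

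Rps19 had the smallest p of the members, and its values did not depend on which shCTCF library was read. Rps19, a small-subunit protein needed for processing of the small ribosomal RNA and mutated in Diamond-Blackfan anaemia, stood at 164 and 152 RPKM in shLuc and at 212 and 199 RPKM in shCTCF. Both shCTCF libraries lay above both controls, from a mean of 158 ± 8.43 to 206 ± 9.11 RPKM (SD, n = 2 each). The log2 change was 0.38 (SE 0.08), with p 0.0013 before and 0.070 after adjustment in limma. The values rest on 540 and 586 reads against 580 and 723 reads. A processed copy with its own row, Rps19-ps3, stood at 81.5 and 88.8 RPKM against 112 and 137 RPKM (log2 change 0.53, SE 0.11), and was named after its values were seen. Reads of Rps19 and of such near-identical copies could be split between rows by the counting, which applies to most ribosomal protein genes.

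For the other members with the highest log2 changes, shCTCF library 3 lay well above library 2. Rps28, a small protein near the mRNA exit site, stood at 231 and 218 RPKM in shLuc and at 257 and 372 RPKM in shCTCF (log2 change 0.46, SE 0.15). Rps29, a zinc-finger protein of the small subunit's head, stood at 299 and 322 RPKM against 360 and 475 RPKM (log2 change 0.42, SE 0.12). Rpl24, which forms a bridge from the large to the small subunit, stood at 151 RPKM in each shLuc library and at 178 and 223 RPKM in shCTCF (log2 change 0.40, SE 0.11). In these genes the groups were apart, but shCTCF library 3 made up most of the difference. Rplp2, the partner of Rplp1 in the stalk, stood at 407 and 411 RPKM against 452 and 629 RPKM (log2 change 0.38, SE 0.14). Rpl37a, a zinc-finger protein of the large subunit, stood at 244 and 238 RPKM against 265 and 362 RPKM (log2 change 0.36, SE 0.13). Their adjusted p in limma ran from 0.14 (Rpl24) to 0.26 (Rpl37a).

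The authors' deposited table of 435 changed genes, made from the same 4 libraries, lists 6 members, each higher in shCTCF, where 2.00% of all tested genes are listed as higher and 2.20% as lower. In the authors' deposited table these include Rps19 (log2 change 0.37, FDR 0.0053), Rpl24 (0.41, FDR 0.021), Rps29 (0.42, FDR 0.035) and Rps28 (0.48, FDR 0.049). Outside the members, the authors' deposited table lists 2 rows that join a ribosomal protein gene with another gene, both higher. Of these, the row of Rpl30 had a log2 change of 0.33 (FDR 0.043 in the authors' deposited table). Rps19-ps3 is listed there too (0.54, FDR 0.0036 in the authors' deposited table). No source used here names the tool behind those values, and since the libraries are the same the list is no independent evidence.

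A smaller set of members had log2 changes near 0. Rpl12, which sits at the base of the stalk, stood at 317 and 319 RPKM in shLuc and at 271 and 346 RPKM in shCTCF. The shCTCF libraries lay on either side of the controls (log2 change −0.05, SE 0.11). Rpl7a stood at 272 and 256 RPKM against 245 and 268 RPKM (−0.04), and Rpl7 at 495 and 525 RPKM against 488 and 511 RPKM (−0.03). Rpl29 stood at 146 and 153 RPKM against 139 and 158 RPKM (−0.01). Rpsa, a small-subunit protein also known as a laminin receptor precursor, stood at 377 and 351 RPKM against 359 and 368 RPKM (0.00). Rps6, the substrate of the S6 kinases downstream of mTOR, stood at 203 and 221 RPKM against 211 and 216 RPKM (0.01). In all of these the groups overlapped. The signs of Rpsa and Rps6 turned under several scalings and that of Rpl8 under 3 of them. Those of Rpl12, Rpl7a, Rpl7 and Rpl29 depended on which library was left out. No direction is given for any of these genes.

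Other members were chosen for their known roles. Rpl11, which with Rpl5 and the small ribosomal RNA of the large subunit binds Mdm2, stood at 235 and 225 RPKM in shLuc and at 242 and 271 RPKM in shCTCF (log2 change 0.15, SE 0.08). Rpl22, which is needed for the development of alpha-beta T cells, stood at 96.9 and 106 RPKM against 115 and 130 RPKM, with groups apart (0.27, SE 0.09). Its paralog Rpl22l1 stood at 41.2 and 51.3 RPKM against 44.4 and 48.3 RPKM, with groups that overlapped (0.01, SE 0.11). Rpl22l1 was thus below its paralog in every library. Rpl38, known from homeotic skeletal defects of mice with less of it, stood at 130 and 153 RPKM against 153 and 201 RPKM (0.31, SE 0.13). Its lower shCTCF value lay just below the higher control. Fau, which encodes a ubiquitin-like protein fused to a small-subunit protein, stood at 546 and 540 RPKM against 601 and 700 RPKM, with groups apart (0.25, SE 0.09). Rps3, at the mRNA entry site, and Rpl10, one of the last proteins to join the large subunit, had log2 changes of 0.12 and 0.07. The sign of Rpl10 turned with the length trend described below subtracted.

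The remaining expressed paralogs among the members had log2 changes above 0. That of Rps4x turned to −0.022 with the length trend described below subtracted, at an implied length of 292 bp that is too short to encode its protein. Rps27l, a p53-induced relative of Rps27, stood at 164 and 181 RPKM in shLuc and at 185 and 219 RPKM in shCTCF (log2 change 0.23, SE 0.10). Rpl7l1 stood at 53.1 and 52.2 RPKM against 53.8 and 60.9 RPKM (0.12, SE 0.09), and Rps4x at 705 and 734 RPKM against 767 and 840 RPKM (0.16, SE 0.08). None passed the adjusted threshold in limma. Rpl36al, outside the members by its symbol, stood at 216 and 233 RPKM in shLuc and at 237 and 304 RPKM in shCTCF. Its log2 change was 0.26 (SE 0.12, adjusted p 0.38 in limma), and it was named after its values were seen.

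Beside these, 11 rows of the table join a ribosomal protein gene that has no row of its own with an overlapping or copied gene. They are not members, and reads of the joined genes cannot be told apart. Their log2 changes ran from −0.095 (Rps25, joined with Ccdc84) to 0.43 (Rpl34, joined with Rpl34-ps1), and all but Rps25 were above 0. The row of Rpl34 stood at 312 and 329 RPKM in shLuc and at 318 and 585 RPKM in shCTCF, so that 1 library made the difference. The row of Rpl30 stood at 342 and 378 RPKM against 421 and 486 RPKM (0.33), and that of Rps27, the relative of Rps27l, at 181 and 183 RPKM against 221 and 239 RPKM (0.34). In both, the groups were apart. The row of Rpl5 had a log2 change of 0.09 and that of Rps27a, which encodes ubiquitin fused to a small-subunit protein, one of 0.16.

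The subunits were set side by side. Of 40 tested large-subunit members 35 had a log2 change above 0, with a median of 0.16, and of 30 small-subunit members 30 did, with a median of 0.23. An unadjusted p below 0.05 in limma was reached by 15 and 14 of them, all higher in shCTCF (8.19% of all tested genes were higher at that threshold). Groups were apart and higher in 27 and 23 (24.1% of all tested genes). The mean log2(RPKM + 1) of the large-subunit members minus that of the small-subunit members was −0.54 and −0.55 in shLuc and −0.58 and −0.60 in shCTCF, a difference of −0.04 between the groups with no overlap. Read from the sums, small-subunit members reached 0.873 and 0.892 of the large-subunit sum in shLuc and 0.899 and 0.920 in shCTCF. These sums leave out ribosomal protein genes in rows joined with another gene, most of them of the large subunit. Among these the row of Rpl32, joined with Cand2, stood at 1128 and 1159 RPKM in shLuc, so the level of the ratio depends on which genes share a row. Small-subunit members had shorter gene models (median 590 bp, against 734 bp for the large subunit), and the part of length in this difference was not tested. Without shCTCF library 3 the medians were 0.09 (large) and 0.11 (small).

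Shorter genes as a whole read higher in shCTCF, which bears on a group of short genes. The length of a gene model was read from the steps of the RPKM values, as the smallest length that gives whole reads in all libraries, for 65 members and 7011 tested genes in all. It can be a fraction of the true length, as in Rplp0 and Rps4x, whose 340 and 292 bp are too short to encode their proteins, so that values corrected for length are uncertain for such genes. Members had a median implied length of 679 bp, against 2473 bp over all tested genes. Genes of up to 500 bp that are no members had a median log2 change of 0.15 (244 genes), and members of that length one of 0.28 (16 genes). From 500 to 750 bp the medians were 0.12 (242 genes) and 0.18 (24 members), and from 750 to 1000 bp 0.07 (349 genes) and 0.12 (12 members). From 1000 to 1500 bp they were 0.05 (844 genes) and 0.11 (7 members), and over 4000 bp the other genes stood at −0.01 (1608 genes). In each range with 7 or more members, the members' median was above that of the other genes. The other genes too can be listed at a fraction of their length, with implied lengths down to 21 bp, so long genes may stand in the short ranges. How far this adds to the members' distance from them was not tested.

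This tilt with length was larger in shCTCF library 3 as well. For other genes of up to 500 bp the median over the control mean was 0.06 in shCTCF library 2 and 0.31 in library 3, and for members of that length it was 0.14 and 0.41. Across the 65 members, log2 length and log2 change had Pearson r = −0.38 and Spearman rho = −0.45, and log2 mean RPKM and log2 change r = 0.04 and rho = 0.04, a description over genes that share the same 4 libraries. With a smooth trend on length, fitted on genes that are no members, subtracted from each library, the members' median was 0.086 (0.072 for the large and 0.11 for the small subunit). Groups were then apart and higher in 31 of 65 members and lower in 6, against 21.9% and 22.0% of the 7011 genes with a length. After that subtraction Rps19 had a log2 change of 0.26, Rpl24 of 0.28 and Rps28 of 0.28, while Rplp0 had −0.10 and Rpl22l1 −0.15. This alternative was chosen after seeing the data. It rests on implied lengths, which can be too short in members and other genes alike, and the part of length in the result was not tested.

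**Figure D3:**
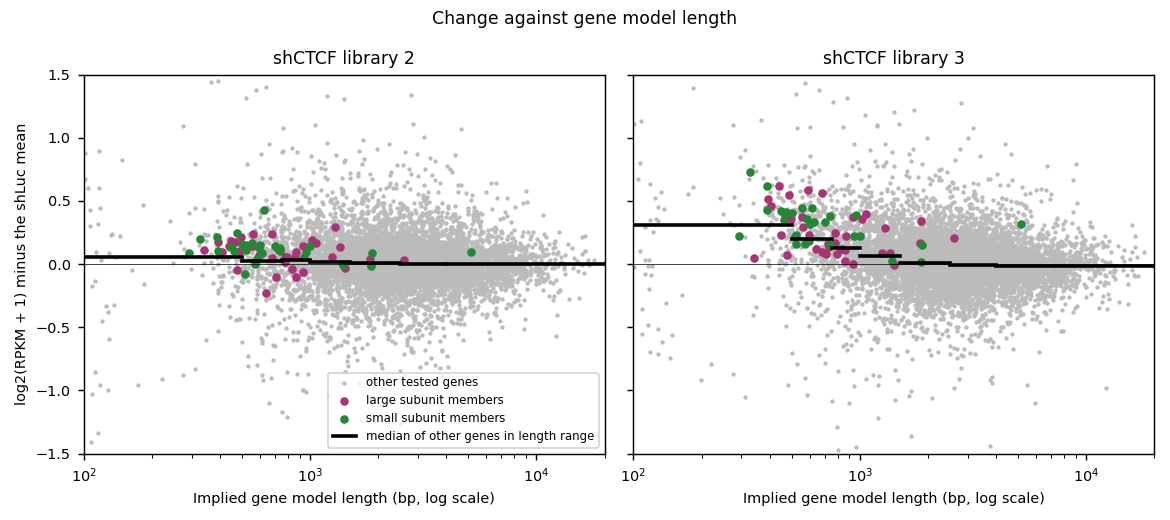
Change of each gene in shCTCF library 2 (left) and shCTCF library 3 (right), as log2(RPKM + 1) minus the mean of the shLuc libraries (y axis), against implied gene model length in bp on a log scale (x axis). Grey points are other tested genes, coloured points the members of the large (purple) and small (green) subunit, and black lines the medians of other genes in each length range. The line for genes up to 500 bp lies at 0.06 on the left and 0.31 on the right, and members of that length have medians of 0.14 and 0.41.

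Members with and without the pyrimidine run overlapped in size of change. Members with a run at an annotated start had a median log2 change of 0.21 (31 genes, from −0.05 to 0.38), and those without one had 0.16 (21 genes, from −0.02 to 0.46). Fau, Rplp2 and Rpl38 among the printed genes had runs and log2 changes of 0.25 to 0.38. Rpl7a and Rps6 had longer runs than Rplp2 and log2 changes of −0.04 and 0.01. Rps28 and Rpl24, with no run in the window, were at 0.46 and 0.40. The printed genes were arranged by run and log2 change, so contrasts among them do not describe the members as a whole. The part of the run in the change was not tested.

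Other genes of translation had lower medians, in lists written with knowledge of earlier results of these data. For these and the lists that follow, the shares of all tested genes at an unadjusted p below 0.05 in limma were 8.19% higher and 5.93% lower. Of the 21 tested genes outside the ribosome whose mRNAs are textbook members of the TOP class, 16 had a log2 change above 0, with a median of 0.08 and 0 called in limma (1 with an unadjusted p below 0.05). Eef1a1, which brings aminoacyl-tRNA to the ribosome, stood at 3192 and 3125 RPKM in shLuc and at 3350 and 3349 RPKM in shCTCF (log2 change 0.08, SE 0.08). Eef2, the translocase, stood at 2105 and 1802 RPKM against 2015 and 1823 RPKM (−0.02, SE 0.10). Among 11 elongation and release factors 7 were above 0 (median 0.07, 0 called, 1 at an unadjusted p below 0.05 in limma). Among 33 initiation factors 18 were above 0 (median 0.02, 0 called, 1 at an unadjusted p below 0.05 in limma). These gene models are longer than those of the ribosomal proteins, with medians of 1565, 1933 and 1910 bp.

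Small nucleolar RNA hosts, noncoding transcripts with TOP-like starts, had a higher median than the members. All 6 tested had a log2 change above 0, with a median of 0.35 and 0 called. At an unadjusted p below 0.05 in limma 5 were higher (8.19% of all tested genes). Groups were apart and higher in 5 of the 6 (24.1% of all tested genes). Snhg12 stood at 19.8 and 23.4 RPKM in shLuc and at 28.9 and 33.5 RPKM in shCTCF (log2 change 0.51, SE 0.11, adjusted p 0.088 in limma). It rests on 63 and 87 against 76 and 117 recovered reads, whose counting error alone gives an SE of 0.16. Snhg1 stood at 81.4 and 98.0 RPKM against 99.6 and 121 RPKM (0.30, SE 0.12), with groups apart. Their implied gene models are also short (median 541 bp), and with the length trend subtracted their median was 0.24.

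Regulators and assembly factors of ribosomes had medians near that of all tested genes. Of 20 tested regulators 11 had a log2 change above 0, with a median of 0.00, 0 called, and 1 with an unadjusted p below 0.05 in limma. That gene was Myc, the transcription factor that drives ribosome production, at 160 and 148 RPKM in shLuc and 178 and 177 RPKM in shCTCF (log2 change 0.20, SE 0.08, adjusted p 0.27 in limma). Of 27 assembly factors 18 were above 0 (median 0.05, 0 called, 2 at an unadjusted p below 0.05 in limma). Npm1, a nucleolar chaperone, stood at 426 and 484 RPKM against 480 and 591 RPKM, with groups that overlapped (0.23, SE 0.11). Implied gene models had medians of 3598 bp (regulators) and 2302 bp (assembly factors), against 679 bp for the members, and the part of length in this contrast was not tested.

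Other complexes of short genes give a further comparison. Of all tested genes 8.19% were higher and 5.93% lower at an unadjusted p below 0.05 in limma. Called higher were 0.697% of them and called lower 0.596%. Of 67 tested proteins of the mitochondrial ribosome, which is built from a different set of genes, 53 were above 0 with a median of 0.07, and 8 were higher and 2 lower at an unadjusted p below 0.05 in limma. Of them 2 passed the adjusted threshold in limma. Mrps16 rose from 74.5 and 79.5 to 111 and 132 RPKM (log2 change 0.65, adjusted p 0.022 in limma). Mrpl23 fell from 19.7 and 19.1 to 10.7 and 8.94 RPKM (−0.92, adjusted p 0.0094 in limma). It rests on 60 and 68 recovered reads in shLuc and 27 and 30 in shCTCF. Counting error of these reads alone gives an SE of 0.23, above the SE of 0.11 in limma, so this p overstates the precision. Of 77 subunits of oxidative phosphorylation 61 were above 0 with a median of 0.12, and 17 were higher and 2 lower at an unadjusted p below 0.05 in limma. Among them 1 was called, Atp5k (0.43, adjusted p 0.042 in limma). Its SE of 0.076 in limma is likewise below the 0.093 that counting error alone gives. Of 35 proteasome subunits 26 were above 0 with a median of 0.08, and 0 were called or had an unadjusted p below 0.05 in limma. Implied gene models had medians of 1029, 649 and 1277 bp in these lists, and with the length trend subtracted their medians were 0.01, 0.03 and 0.02.

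**Figure D4:**
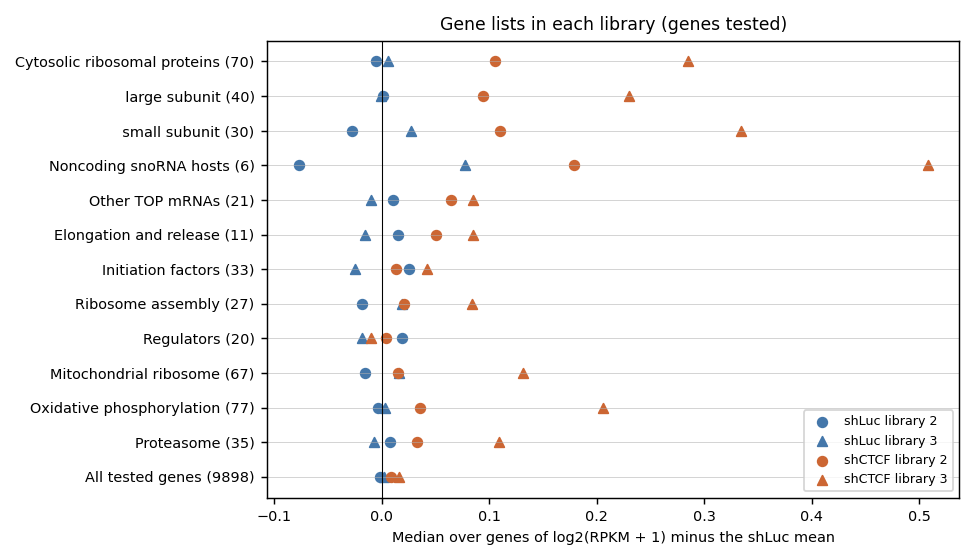
Median over the genes of each list of log2(RPKM + 1) minus the mean of the shLuc libraries (x axis) in each library, with the number of tested genes in parentheses. Blue marks are shLuc and orange marks shCTCF (circles library 2, triangles library 3). Cytosolic ribosomal proteins lie at 0.10 and 0.28 in the shCTCF libraries and noncoding small nucleolar RNA hosts at 0.18 and 0.51, while the regulators of ribosome synthesis lie near 0.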

How the data were processed

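Poly(A) RNA of EL4 cells was sequenced with an shLuc or shCTCF hairpin (2 libraries each). Per the submitters' processing notes, Bowtie2 and the build mm9 were used. No source used here gives the counter, the annotation or any version. The RPKM table that the authors deposited holds 22119 rows, in which overlapping genes share a row. Their table of 435 changed genes adds, per the file headers, an FDR, a p-value, a mean CPM on the log2 scale and a log2 fold change. The full table numbers the libraries of a hairpin 2 and 3 where the titles use 1 and 2, so libraries were grouped by hairpin only. Every per-sample column was used.

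The row with the highest mean was taken for a symbol with several rows (21844 symbols). Genes with a mean of 1 RPKM or more (9898) were tested on log2(RPKM + 1) without covariates (R 4.3.3, limma 3.58.1, eBayes with a mean trend). Benjamini-Hochberg adjustment ran over all of these, and 0.05 was the threshold. The fit was also run on simulated reads with known changes, drawn for each gene on its own. These held no trend on length and no difference between the shCTCF libraries beyond random spread. They therefore do not show how the fit behaves with such features. RPKM values of single-transcript rows were whole numbers of reads (tolerance 0.002 reads) in 7011 of 7012 tested rows and 65 of 68 members, but a row's reads may all be too low by 1 shared factor. Start windows came from RefSeq (GRCm38.p6), whose build differs from that of the reads. Medians and counts of lists are descriptions without a test.

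The members and lists were chosen with earlier results of these data known. Named members were the 6 most abundant, the 6 highest and 6 lowest log2 changes, the 4 smallest p, all paralogs, and genes listed for their roles. Some genes that this rule or the marker lists took are not reported here, though counts and medians include them. Others are named after their values were seen. Alternatives were the pseudocount, the filter, scaling, a replicate block, the prior, joined or repeated rows and leaving out each library. Tables were handled in Python 3.11.15 (pandas 2.3.3, numpy 2.4.6) and plotted with matplotlib 3.10.9.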

Additional observations from a re-analysis of the deposited data

How the results depend on the processing

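The members' median log2 change (0.19) was above 0 under every alternative run, at 0.12 with quantile normalization, 0.15 with cyclic loess normalization and 0.086 (0.072 large, 0.11 small) with the length trend subtracted. Over the fits that leave out 1 library it was 0.10 to 0.28, and 0.11 to 0.33 for the small subunit. In these fits 0 to 5 members were called higher, 4 to 40 were higher and 0 to 1 lower at an unadjusted p below 0.05 in limma, and 1 to 7 were apart and lower. Of all tested genes, 0 to 60 were then called higher and 0 to 45 lower, and Ctcf had −0.92 to −0.86. Such fits hold 1 lone library in a group, assumed to vary like the others, so no conclusion is drawn here from these threshold counts. A group of 1 library is also more easily apart: 32.0% to 34.8% of all genes tested in these fits were apart and lower. The cause of the differences between these fits was not tested.

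Without the filter 9 genes were called higher and 15 lower, and 11 members were higher at an unadjusted p below 0.05 in limma (6.51% of all genes). Quantile and cyclic loess normalization gave 18 and 17 such members (7.03% and 7.46% of all genes). With these scalings 6 and 4 members were apart and lower (22.8% and 22.0% of all genes). Without a trend in the prior 33 genes were called higher and 27 lower, with 11 members higher at an unadjusted p below 0.05 in limma (7.58% of all genes). Limma-voom on recovered reads called 196 genes higher and 174 lower, 16 of them members and higher. With the length trend subtracted 11 of 65 members were higher and 1 lower at an unadjusted p below 0.05 in limma (6.85% and 7.05% of 7011 genes), and 31 were apart and higher and 6 apart and lower (21.9% and 22.0%). The library numbers are not stated to pair the samples. The differences within the groups had Pearson r = 0.16 over 9898 genes (2 pairs). With the number as a replicate block 294 genes were called higher and 213 lower, 18 members were among those higher, and 44 members were higher at an unadjusted p below 0.05 in limma (11.1% of all genes).

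Of 534 values of named members under alternatives, 481 kept their sign and side of the threshold, 23 passed it and 30 turned sign, in 11 members. Signs turned with quantile normalization for Rpl8 (−0.037), Rps6 (−0.027) and Rpsa (−0.078) and with cyclic loess for Rpl8 (−0.00083), Rps6 (−0.034) and Rpsa (−0.053). They turned with centring on other genes for Rps6 (−0.0020) and Rpsa (−0.010) and with limma-voom for Rpsa (−0.00014). With the length trend subtracted they turned for Rpl10 (−0.027), Rpl22l1 (−0.15), Rpl8 (−0.00040), Rplp0 (−0.10), Rps4x (−0.022), Rps6 (−0.027) and Rpsa (−0.013). Over the fits without 1 library, Rpl12 ran from −0.23 to 0.12, Rpl29 from −0.10 to 0.080, Rpl7 from −0.072 to 0.012, Rpl7a from −0.10 to 0.022, Rplp0 from −0.024 to 0.19, Rps6 from −0.052 to 0.069, Rpsa from −0.051 to 0.051 and Rpl22l1 from −0.14 to 0.16. Counting error of the recovered reads alone gave the log2 change an SE of 0.016 (Rpl4) to 0.13 (Rpl22l1).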
